A study of Mus musculus with 25 samples.

Results

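The genes described here encode the mitochondrial respiratory chain, taken by name from the bead table: symbols that start with Nduf, with Sdh and a letter from a to d, with Uqcr, with Cox4 to Cox8, or with Atp5. Of 77 symbols with such a name, 71 had a probe with a detection p-value under 0.05 on at least 3 of the 25 arrays, and these are the members, out of 11369 symbols tested. Each symbol is represented by its probe with the highest mean signal. Complex I has 32 members, complex II 3, complex III 5, complex IV 14 and complex V 13. The other 4 carry a matching name without being a subunit: Ndufaf1 is a complex I assembly factor, Atp5s and Atp5sl are now named Dmac2l and Dmac2, and Cox4nb is now Emc8, of a complex in the endoplasmic reticulum. Of the members, 66 were detected on every array and 5 on fewer. Atp5k, Cox4i2, Cox7b2, Cox8c, Ndufs1 and Uqcrq missed the detection rule and are not described further.

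The respiratory chain sits in the inner mitochondrial membrane. Complex I (NADH dehydrogenase) and complex II (succinate dehydrogenase) pass electrons to coenzyme Q, complex III passes them on to cytochrome c, and complex IV (cytochrome c oxidase) hands them to oxygen, while complex V (ATP synthase) uses the resulting proton gradient to make ATP. Most subunits are encoded in the nucleus and a small core in mitochondrial DNA. In the intestine, the epithelium of the large bowel is known to burn butyrate made by bacteria in its mitochondria. The array measured none of the 13 mitochondrially encoded subunits, so the values below are about nuclear genes.

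The study measured RNA of the mouse intestine on Illumina bead arrays, in C57Bl/6 mice 5 weeks after surgery on a segment of ileum 3 cm above the ileocecal valve. All mice were female, 6 to 8 weeks old before surgery, and ate a gel diet for 5 days ahead of it. In a self-filling loop bowel content collects and stands, whereas a self-emptying loop drains. The 8 groups were TLR4 KO self-filling loops (n = 3), TLR4 KO self-emptying loops (n = 3), IL10 KO self-filling loops (n = 3), IL10 KO self-emptying loops (n = 3), WT self-filling loops (n = 3), WT self-emptying loops (n = 4), WT sham cecum (n = 3) and WT sham ileum (n = 3). Sham mice had the abdomen opened and the bowel left alone, and no sham tissue of either knockout was among the samples, so each knockout loop is set against a WT loop. Nothing in the labels tells whether the arrays of a group stem from different mice, and p-values accordingly reflect the variation among these samples, which may be technical. The labels give no allele beyond the genotype. Tlr4 encodes the receptor for bacterial lipopolysaccharide and Il10 an anti-inflammatory cytokine.

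Between 12123 and 13627 probes per array were detected, and arrays of one group correlated at 0.968 to 0.992 over the 11369 symbols tested. One Tlr4 probe was detected on 0 of 3 TLR4 KO self-filling and 1 of 3 TLR4 KO self-emptying arrays, against all arrays of the other 6 groups, while a second Tlr4 probe was detected nowhere. The Il10 probe went the other way: it was detected on all 6 IL10 KO arrays and on none of the others. Its place relative to the altered part of the gene is not known here, so it checks nothing about the IL10 KO label. All TLR4 KO arrays carry codes of a series MX and all other arrays codes of a series MW. TLR4 genotype and array series therefore cannot be told apart. The MW codes were split into runs of 8 consecutive codes, which the labels do not call slides or batches. In whole tissue, fewer cells of a type and less RNA per cell cannot be told apart.

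The start regions of some member genes hold short motifs, and 4 of these regions are printed because most members differed in one direction in some of the comparisons below. RefSeq windows of 300 bases around each start, most of each window upstream of it (build GRCm38.p6), matched 61 members with 67 windows. Exact matches were sought on both strands for the palindrome known to be bound by NRF1, a factor for respiratory genes (the capitals in the Atp5g2 window below), and for CCGGAAG (ETS family), AAGATGG (YY1) and AAGGTCA (oestrogen-related receptors). The NRF1 motif was in 4.48% of the member windows and in 0.971% of all 32851 windows, and the ETS motif in 22.4% and 8.86%. The YY1 motif was in 17.9% of member windows and 6.34% of all windows, and the ERR motif in 8.96% and 4.72%. The motifs do not overlap in the windows printed here. These 4 windows are the 3 with the NRF1 motif and that of Cox7a1, which the results turn on and which has no match to any of the 4 motifs. Capitals mark the NRF1 motif and, in Cox6a1 alone, an ETS motif as its reverse complement. Cox6a1 lies at chr5:115348909-115349208 on the minus strand, Atp5g2 at chr15:102670998-102671297 on the minus strand, Uqcrc1 at chr9:108936398-108936697 on the plus strand and Cox7a1 at chr7:30183921-30184220 on the plus strand.
Cox6a1: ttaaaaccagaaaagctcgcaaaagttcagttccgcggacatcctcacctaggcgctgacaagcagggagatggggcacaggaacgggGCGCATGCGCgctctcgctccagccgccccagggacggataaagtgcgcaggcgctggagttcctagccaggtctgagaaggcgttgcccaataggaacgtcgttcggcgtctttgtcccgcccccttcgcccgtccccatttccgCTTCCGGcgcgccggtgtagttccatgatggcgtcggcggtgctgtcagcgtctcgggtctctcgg
Atp5g2: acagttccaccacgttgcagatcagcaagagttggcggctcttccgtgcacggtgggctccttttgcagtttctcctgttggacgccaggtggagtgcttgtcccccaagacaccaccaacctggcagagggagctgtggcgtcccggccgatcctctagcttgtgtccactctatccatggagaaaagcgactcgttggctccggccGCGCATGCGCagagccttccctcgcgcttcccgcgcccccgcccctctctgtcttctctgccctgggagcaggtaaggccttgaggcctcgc
Uqcrc1: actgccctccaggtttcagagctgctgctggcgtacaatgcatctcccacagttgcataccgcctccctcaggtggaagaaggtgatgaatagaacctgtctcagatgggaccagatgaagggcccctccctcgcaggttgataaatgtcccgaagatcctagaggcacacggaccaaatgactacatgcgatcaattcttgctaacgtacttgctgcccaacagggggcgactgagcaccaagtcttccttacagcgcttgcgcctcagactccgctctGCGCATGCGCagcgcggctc
Cox7a1: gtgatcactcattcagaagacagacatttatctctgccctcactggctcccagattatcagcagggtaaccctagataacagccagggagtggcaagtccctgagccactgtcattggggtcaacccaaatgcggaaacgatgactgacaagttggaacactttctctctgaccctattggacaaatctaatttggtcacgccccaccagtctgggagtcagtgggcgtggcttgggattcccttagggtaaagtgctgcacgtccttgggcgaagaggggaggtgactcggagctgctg
A match is a description of these letters and no evidence that a factor binds there.

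Levels below are normalised log2 intensities, and differences are log2 differences with their standard error. A gene is called higher or lower when limma's Benjamini-Hochberg adjusted p, over all 11369 symbols, is under 0.05. Levels of different genes are not set against each other, because probes differ in brightness.

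The respiratory chain genes were highest in the cecum. Of the 71 members, 56 had their highest group mean in WT sham cecum, 8 in TLR4 KO self-filling loops, 6 in WT self-filling loops and 1 in IL10 KO self-filling loops. To put genes of unequal brightness on one scale, each gene's mean over the 25 arrays was subtracted, and the median over members was taken on each array. This relative level averaged 0.42 ± 0.05 in WT sham cecum (SD, n = 3) and 0.08 ± 0.03 in WT self-filling loops (SD, n = 3). The other 6 group means lay between -0.11, in WT self-emptying loops, and 0.00, in TLR4 KO self-filling loops. The cecum arrays, at 0.39 to 0.48, lay above every other array. The WT self-filling arrays, at 0.04 to 0.11, came next and did not overlap with WT self-emptying loops (-0.13 to -0.09) or WT sham ileum (-0.16 to -0.01). They also lay above the arrays of the other 4 groups, of which the highest, an IL10 KO self-emptying array, stood at 0.04 as well. The remaining neighbours in the order of group means overlapped. Single genes varied little within groups: the median within-group SD was 0.14, beside a median range of 1.01 over all arrays.

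**Figure D1:**
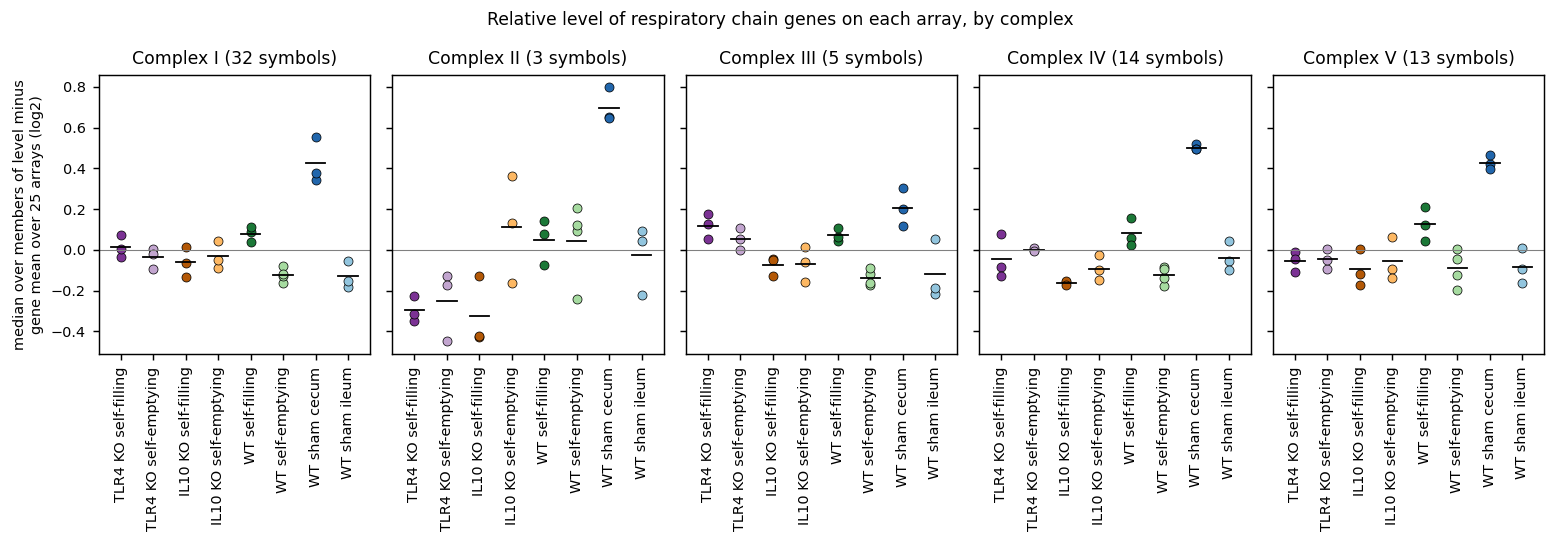
Relative level (log2, median over the members of a complex after subtracting each gene's mean over 25 arrays) on each array, by sample group, for complexes I to V. Each point is 1 array and each line a group mean. The cecum points lie at 0.34 to 0.55 for complex I and at 0.39 to 0.47 for complex V, and WT self-filling loops lie above WT self-emptying loops and WT sham ileum for complexes I and V.

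The comparison of WT sham cecum with WT sham ileum asks how 2 unoperated parts of the bowel differ. Of the 71 members, 52 were higher in the cecum and 1 lower, beside 16.3% higher and 11.6% lower among all symbols (27.8% in either direction). The median difference was 0.53 over members and 0.03 over all symbols. By complex, 27 of 32 complex I members were higher, 3 of 3 of complex II, 2 of 5 of complex III, 10 of 14 of complex IV and 9 of 13 of complex V. Every cecum array lay above every ileum array for 62 members (25.8% of all symbols) and below for 2 (20%). Within the 3 runs of arrays, 66, 68 and 63 members were higher in the cecum. With arrays scaled by their median in place of quantiles, 14 members were higher and 1 lower, and the calls among all symbols were 793 higher and 1490 lower.

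In complex I, Ndufb9 and Ndufb10, accessory subunits of the membrane arm, rose most. Ndufb9 had levels of 9.67, 8.98 and 9.57 in WT sham cecum, against 8.45, 7.77 and 8.17 in WT sham ileum. The groups did not overlap, and the difference was 1.28 ± 0.20 (limma adjusted p = 3.93e-05). Ndufb10 had levels of 9.30, 8.83 and 8.96 in WT sham cecum, against 7.87, 7.69 and 7.83 in WT sham ileum, a difference of 1.24 ± 0.20 (limma adjusted p = 7.28e-05). All cecum arrays again lay above all ileum arrays.

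In complex II, which is also an enzyme of the citric acid cycle, the membrane anchor subunits Sdhd and Sdhc rose by 1.13 ± 0.23 (limma adjusted p = 0.000711) and 0.76 ± 0.17 (limma adjusted p = 0.00181). In complex III, Uqcr, now named Uqcr11, rose by 0.67 ± 0.13 (limma adjusted p = 0.000436). The core protein Uqcrc2 rose by 0.37 ± 0.09 (limma adjusted p = 0.00334). Uqcrc1, the other core protein, differed by 0.07 and was not called.

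Complex IV has subunits that come as a broadly expressed form and a form known from muscle or testis, and the muscle forms named here were higher along with the broad ones. Cox6a2, the heart and skeletal muscle form of subunit 6a, had levels of 6.24, 5.57 and 5.21 in WT sham cecum, against 4.33, 4.40 and 4.29 in WT sham ileum. It was detected on all 3 cecum arrays and on none of the 3 ileum arrays, and it was not detected in any WT loop. It was at least 1.85-fold higher in the cecum, a bound set against the lowest detected signal of each ileum array. Those 3 cecum arrays are the only ones with Cox6a2 detected, so it met the detection rule through the cecum alone and had to differ: it counts among the 52 and among the 10 of complex IV, but its value is a description. Cox6a1, the broad form, rose by 0.44 ± 0.11 (limma adjusted p = 0.00379). Cox7a2, the broad form of subunit 7a, rose by 1.09 ± 0.20 (limma adjusted p = 0.000185), and Cox7a1, its heart and muscle form, by 0.71 ± 0.17 (limma adjusted p = 0.00237). Cox7b, Cox4i1 and Cox6b1 rose as well, by 1.02, 0.46 and 0.38.

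Cox6b2, the testis form of subunit 6b, was the member called lower. Its levels were 4.51, 4.33 and 4.78 in WT sham cecum, against 5.42, 5.71 and 5.91 in WT sham ileum. It was detected on 1 of 3 cecum arrays and on 3 of 3 ileum arrays. The groups did not overlap, and the difference was -1.14 ± 0.32 (limma adjusted p = 0.0101), in which 2 of the 3 cecum values are not above background and its size is therefore uncertain. Ndufa4, a complex IV subunit despite its name, differed by -0.24 and was not called (adjusted p = 0.179). In complex V, Atp5h and Atp5e rose most, by 0.89 ± 0.15 (limma adjusted p = 0.000126) and 0.83 ± 0.18 (limma adjusted p = 0.00101), and Atp5g2 rose by 0.80. Atp5sl, for which a role in complex I assembly is described, rose by 0.69 ± 0.16 (limma adjusted p = 0.0024).

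**Figure D2:**
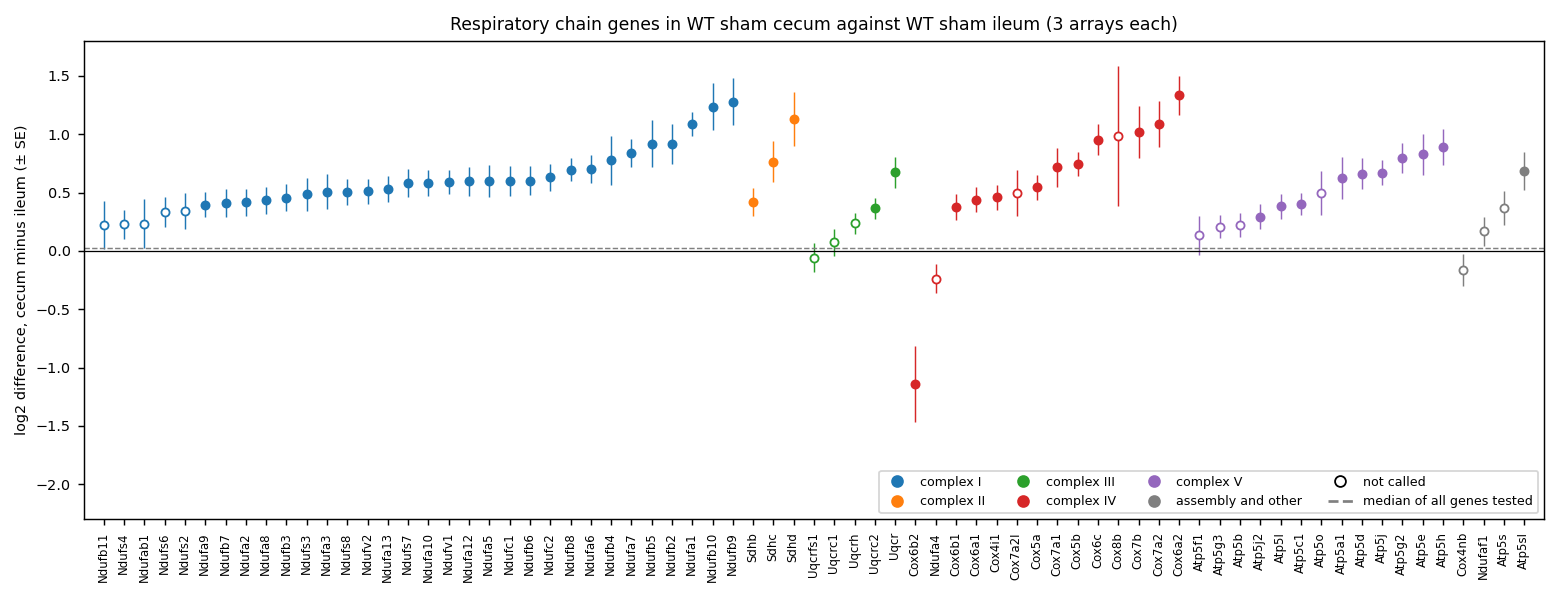
Log2 difference of WT sham cecum minus WT sham ileum for each of the 71 members, by complex. Each point is 1 gene with its standard error, and filled points were called. The complex I members are all above 0, and Cox6b2 at -1.14 is the member called lower.

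Some genes around the chain were called in the cecum as well, to be read beside 16.3% higher and 11.6% lower among all symbols. Of 18 citric acid cycle and pyruvate entry genes, 12 were higher and 1 lower, led by Dlat of pyruvate dehydrogenase (1.53 ± 0.15, limma adjusted p = 5.06e-08) and Idh3a of isocitrate dehydrogenase (1.08 ± 0.14, limma adjusted p = 2.56e-06). Of 14 genes of mitochondrial biogenesis, 3 were higher, a share near that of all symbols. Among them were the coactivators Ppargc1b (2.10 ± 0.29, limma adjusted p = 8.26e-06) and Ppargc1a (1.38 ± 0.25, limma adjusted p = 0.000223). Of 9 coenzyme Q synthesis genes, 4 were higher, and of 68 mitochondrial ribosomal proteins 33 were higher and 1 lower. Gpd2, mitochondrial glycerol 3-phosphate dehydrogenase, which also feeds coenzyme Q, fell by 1.39 on the log2 scale (limma adjusted p = 1.75e-06). Higher levels were not limited to mitochondrial lists. Cytosolic ribosomal proteins summed to 488000 to 510000 in WT sham cecum and 399000 to 435000 in WT sham ileum. Hypoxia and glycolysis genes summed to 42500 to 46600 and 28800 to 30900, and fatty acid oxidation genes to 14500 to 15500 and 11800 to 12900. Electron carriers and other chain parts outside the rule overlapped, at 24100 to 25900 and 24900 to 26700. Some markers of other cell types differed at the same time. Of 12 absorptive enterocyte markers, 9 were lower in the cecum, with a summed level of 28900 to 33300 in WT sham cecum and 97500 to 106000 in WT sham ileum. Of 7 T cell markers 3 were lower, at a summed level of 300 to 336 in WT sham cecum and 485 to 919 in WT sham ileum. Of 7 pericyte and vascular smooth muscle markers 2 were lower, at 484 to 602 in WT sham cecum and 746 to 981 in WT sham ileum. Of 7 striated muscle markers 1 was higher, at 267 to 1520 in WT sham cecum and 482 to 926 in WT sham ileum, and of 11 smooth muscle markers 1 was higher. For both muscle lists this is no more than the share of all symbols called higher. The 2 measured genes of thermogenic fat, Ppargc1a among them, summed to 392 to 495 in WT sham cecum and 174 to 216 in WT sham ileum. The part of these cell types in the result was not tested.

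The comparison of WT self-filling loops with WT sham ileum joins the surgery and the standing content. Of the 71 members, 11 were higher in the self-filling loop and 1 lower, beside 10.5% higher and 9.25% lower among all symbols (19.8% in either direction). The share of all symbols called higher against lower turned with the scaling: 1681 higher and 692 lower with median scaling, 916 and 1442 with cyclic loess. The share of members called higher was thus near the background and the share called lower below it. The median difference was 0.20 over members and 0.04 over all symbols, and 58 of 71 members had a positive difference. Every self-filling array lay above every sham array for 34 members (23.4% of all symbols) and below for 3 (20%). Within the pair of runs that hold both groups, 59 and 50 members were higher. The count of 12 called was 20 with array weights and 23 with median scaling. It was 4 without WT sham ileum replicate 2, 6 without WT self-filling replicate 3 and 7 without WT self-filling replicate 1.

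Ndufv1, the complex I flavoprotein that binds NADH, had levels of 12.06, 12.18 and 12.33 in WT self-filling loops, against 11.65, 11.51 and 11.63 in WT sham ileum. The groups did not overlap, and the difference was 0.59 ± 0.10 (limma adjusted p = 0.00104). Ndufb9 rose by 0.64 ± 0.20 (limma adjusted p = 0.03). In complex III, Uqcr rose by 0.60 ± 0.13 (limma adjusted p = 0.00429). In complex IV, Cox7b and Cox7a2 rose by 0.65 ± 0.22 and 0.56 ± 0.20 (limma adjusted p = 0.0432 and 0.0497). In complex V, Atp5e and Atp5o, small subunits of the catalytic head and the stalk, rose by 0.66 ± 0.18 and 0.60 ± 0.19 (limma adjusted p = 0.0135 and 0.0287). Of these genes, Ndufv1 and Uqcr kept their call under every omission of an array. Ndufb9, Cox7b and Cox7a2 each lost theirs in 5 of 6 omissions, Atp5o in 4 and Atp5e in 3. Cox7a2 also lost its call under 4 of 12 other settings.

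Subunits of complex II were called in opposite directions. Sdhd had levels of 8.61, 8.23 and 8.61 in WT self-filling loops, against 7.90, 7.21 and 7.57 in WT sham ileum, a difference of 0.92 ± 0.23 (limma adjusted p = 0.0096). Sdhb, the iron-sulfur subunit, had levels of 10.08, 10.20 and 10.13 in WT self-filling loops, against 10.62, 10.58 and 10.51 in WT sham ileum, a difference of -0.43 ± 0.12 (limma adjusted p = 0.0173). Neither gene's groups overlapped. Sdhd lost its call in 1 of 6 omissions of an array, that of WT sham ileum replicate 2. Sdhb lost its call with median scaling and in 4 of 6 omissions of an array, those of WT self-filling replicate 1 or 3 and WT sham ileum replicate 1 or 2. A second Sdhb probe gave -0.38, and another, detected on 10 arrays, gave -0.08.

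Several lists of genes around the chain held genes called higher, beside 10.5% of all symbols. Of 68 mitochondrial ribosomal proteins, 39 were higher in WT self-filling loops than in WT sham ileum and none was lower, with a median of 0.43. Of 9 coenzyme Q synthesis genes, 5 were higher, with Pdss1 at 0.78 ± 0.18 (limma adjusted p = 0.00647) and Coq4 at 0.72 ± 0.15 (limma adjusted p = 0.00401). Of 13 assembly genes of complexes III and IV, 4 were higher, with Lrpprc, which stabilises mitochondrial messenger RNA, at 0.77 ± 0.20 (limma adjusted p = 0.0128). Of 22 hypoxia and glycolysis genes, 11 were higher, led by the hypoxia-induced hydroxylase Egln3 (2.53 ± 0.48, limma adjusted p = 0.00174) and Hif1a (1.99 ± 0.36, limma adjusted p = 0.00132). Their summed level was 39000 to 48900 in WT self-filling loops and 28800 to 30900 in WT sham ileum. It was also high in WT sham cecum (42500 to 46600) and in IL10 KO self-emptying loops (37800 to 46200). It was 35300 to 39100 in IL10 KO self-filling and 32400 to 46600 in TLR4 KO self-filling loops. In self-emptying loops it was 28800 to 30600 in WT and 28500 to 31100 in TLR4 KO. Ppargc1a, a coactivator known to drive respiratory genes, fell by 1.14 on the log2 scale (limma adjusted p = 0.00475). Summed levels of other lists overlapped between WT self-filling loops and WT sham ileum. They were 24400 to 26900 and 24200 to 26200 for the citric acid cycle and pyruvate entry. They were 4790 to 5170 and 4630 to 5040 for mitochondrial biogenesis, and 10800 to 12300 and 11800 to 12900 for fatty acid oxidation.

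Some markers of other cell types were called too, beside 10.5% higher and 9.25% lower among all symbols. In WT self-filling loops against WT sham ileum, 4 of 7 T cell markers, 5 of 9 macrophage markers, 3 of 6 adipocyte markers, 3 of 11 smooth muscle markers and 2 of 7 striated muscle markers were lower. The summed smooth muscle level was 12200 to 32800 in WT self-filling loops and 27500 to 37000 in WT sham ileum. The summed macrophage level was 673 to 1330 in WT self-filling loops and 1970 to 4920 in WT sham ileum. The summed absorptive enterocyte level was 86400 to 102000 in WT self-filling loops and 97500 to 106000 in WT sham ileum, with 1 of 12 markers higher and 1 lower. The part of these cell types in the result was not tested.

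The WT self-emptying loop, which had the surgery without standing content, differed in no member from WT sham ileum by limma (0 higher and 0 lower, beside 0% and 0.0088% of all symbols). At an unadjusted p under 0.05, 1 member was higher and 1 lower. The median difference was -0.01 over members and 0.01 over all symbols, and 33 members were above 0 and 38 below. Every self-emptying array lay above every sham array for 1 member (6.45% of all symbols) and below for 4 (5.3%).

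The self-filling and self-emptying loops of WT mice differ in standing content at equal surgery. Of the 71 members, 11 were higher in self-filling loops and 0 lower, beside 5.95% and 5.56% of all symbols (11.5% in either direction). At an unadjusted p under 0.05, limma had 25 higher and 1 lower. The median difference was 0.20 over members and 0.02 over all symbols. All 13 complex V members, all 5 complex III members and 30 of 32 complex I members had positive differences, 65 of 71 in all. Uqcrfs1 of complex III was detected on no array of either group, so its sign rests on values not above background. Every self-filling array lay above every self-emptying array for 26 members (13.9% of all symbols) and below for none (11.4%). Within the pair of runs that hold both groups, 61 and 59 members were higher, with medians of 0.20 in each.

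Ndufv1 and Ndufb9 rose by 0.42 ± 0.10 (limma adjusted p = 0.00965) and 0.60 ± 0.19 (limma adjusted p = 0.0435), and Uqcr by 0.45 ± 0.12 (limma adjusted p = 0.0236). Cox7a1 had levels of 11.35, 11.50 and 11.19 in WT self-filling loops, against 10.76, 10.36, 10.74 and 10.79 in WT self-emptying loops. The groups were apart, and the difference was 0.68 ± 0.16 (limma adjusted p = 0.0103). Cox7b had levels of 7.40, 7.38 and 7.39 in WT self-filling loops, against 6.68, 6.54, 6.28 and 7.28 in WT self-emptying loops, so that 1 self-emptying array came close to the self-filling arrays. Its difference was 0.70 ± 0.21 (limma adjusted p = 0.0336). Atp5o and Atp5e rose by 0.62 ± 0.17 (limma adjusted p = 0.0269) and 0.54 ± 0.16 (limma adjusted p = 0.0379). Of these 7 genes, Cox7a1 alone stayed called whichever single array was left out, and all 7, Cox7a1 included, lost their call without both WT self-emptying arrays of codes 9 to 16, an alternative chosen after seeing the data.

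The count of 11 rested on several arrays. It fell to 1 without WT self-filling replicate 3, and to 3 without WT self-filling replicate 1, WT self-emptying replicate 2 or WT self-emptying replicate 3. It was 51 higher and 0 lower when arrays were scaled by their median instead of by quantiles, a scaling that moved the median of all symbols to 0.21 and that of members to 0.59. Relative to all symbols the members then stood 0.38 higher. Calls among all symbols were then 1996 higher and 401 lower, and 559 higher and 904 lower with cyclic loess. The count of members was 5 with array runs as a block, 4 in a fit of these groups alone and 2 with the ratio of bright to median signal as a covariate. In the same comparison 12 of 22 hypoxia and glycolysis genes, 16 of 68 mitochondrial ribosomal proteins and 3 of 9 coenzyme Q genes were higher, and Ppargc1a fell by 1.09 on the log2 scale (limma adjusted p = 0.0074). Of 12 enterocyte markers 3 were higher. Lower were 3 of 7 T cell markers, 2 of 6 adipocyte markers and 1 of 7 striated muscle markers. The summed striated muscle level was 183 to 263 in WT self-filling loops and 327 to 1000 in WT self-emptying loops. The summed adipocyte level was 404 to 511 in WT self-filling loops and 699 to 15400 in WT self-emptying loops. The T cell level was 237 to 332 in WT self-filling loops and 583 to 897 in WT self-emptying loops, and the groups were apart in all 3 lists. The 2 thermogenic fat genes summed to 74.9 to 116 in WT self-filling loops and 160 to 220 in WT self-emptying loops. The part of these cell types was not tested.

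In the knockouts the same comparison called few members. In IL10 KO mice, self-filling against self-emptying loops gave 0 higher and 1 lower by limma, beside 1.94% and 2.23% of all symbols (4.17% in either direction), and 3 higher and 12 lower at an unadjusted p under 0.05. The median difference was -0.08 over members and -0.02 over all symbols, and with median scaling the member median turned to 0.048. Every self-filling array lay above every self-emptying array for 4 members (9.55% of all symbols) and below for 11 (11.8%). Within the 3 runs, 21, 26 and 32 members were higher. The member called was Cox7a2, with levels of 7.75, 7.49 and 8.15 in IL10 KO self-filling loops, against 8.75, 8.62 and 8.57 in IL10 KO self-emptying loops. The groups did not overlap, and the difference was -0.85 ± 0.20 (limma adjusted p = 0.0179). Cox7a2 lost its call without IL10 KO self-filling replicate 1 or 2. The count was 0 without IL10 KO self-filling replicate 1, 3 without IL10 KO self-filling replicate 3 and 2 without IL10 KO self-emptying replicate 2. In TLR4 KO mice limma called 0 higher and 0 lower, beside 0.044% in each direction among all symbols (0.088% in either), with 2 higher and 0 lower at an unadjusted p under 0.05. The median difference there was 0.03 over members and 0.02 over all symbols. Every self-filling array lay above every self-emptying array for 5 members (6.89% of all symbols) and below for 2 (5.44%).

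Whether the effect of standing content differed between genotypes was tested as an interaction. For IL10 KO minus WT, the interaction was positive in 0 called members and negative in 3, beside 1% and 1.33% of all symbols (2.33% in either direction), and 61 of 71 members were below 0. The median was -0.27 over members and -0.03 over all symbols. The genes were Cox7a2 (-1.36 ± 0.27, limma adjusted p = 0.013), Cox7a1 (-1.27 ± 0.23, limma adjusted p = 0.00877) and Atp5e (-0.96 ± 0.24, limma adjusted p = 0.0378). In all 3 the sign of self-filling minus self-emptying was turned: Cox7a2 stood at -0.85 in IL10 KO and 0.51 in WT mice, Cox7a1 at -0.59 in IL10 KO and 0.68 in WT mice, and Atp5e at -0.42 in IL10 KO and 0.54 in WT mice. None of the 3 was called within both genotypes: Cox7a2 was called in IL10 KO alone, and Cox7a1 and Atp5e in WT alone. Atp5e lost its call in 10 of 13 omissions of an array and under 3 of 12 other settings. Cox7a2 lost it without WT self-filling replicate 3 and in a fit of these groups alone. Cox7a1 stayed called under every omission of an array and every other setting tried. The count was 6 without WT self-filling replicate 2 or IL10 KO self-filling replicate 3, 5 without IL10 KO self-emptying replicate 1, and 1 without WT self-filling replicate 3. For TLR4 KO minus WT limma called 0 positive and 0 negative, beside 0% of all symbols in each direction, with 0 and 5 at an unadjusted p under 0.05, and the median was -0.14 over members and -0.01 over all symbols. Both interactions use the same WT loops. Averaged over the 3 genotypes, 4 members were higher in self-filling loops and 1 lower, beside 6.43% and 7% of all symbols (13.4% in either direction): Ndufs4, a complex I subunit, at 0.21 ± 0.07, Ndufv1 at 0.23 ± 0.06, Cox7b at 0.45 ± 0.12, Atp5o at 0.40 ± 0.11 and Sdhb at -0.21 ± 0.07. With median scaling 16 were higher and 0 lower, Sdhb standing at 0.018, and with cyclic loess 3 were higher and 2 lower. These averaged calls numbered 2 without TLR4 KO self-filling replicate 2 or IL10 KO self-filling replicate 1, and 3 without TLR4 KO self-emptying replicate 1, WT self-emptying replicate 1 or 2, or WT self-filling replicate 3. Ndufv1 and Atp5o kept their averaged call under every omission of an array. Cox7b lost its call in 2 of 19 omissions, Ndufs4 in 11 and Sdhb in 13, and Ndufs4 also under 6 of 12 other settings. Other Ndufs4 probes differed by 0.11, 0.092 and 0.14 in this average. Other Sdhb probes differed by -0.24 and, for the probe detected on 10 arrays, by 0.070.

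**Figure D3:**
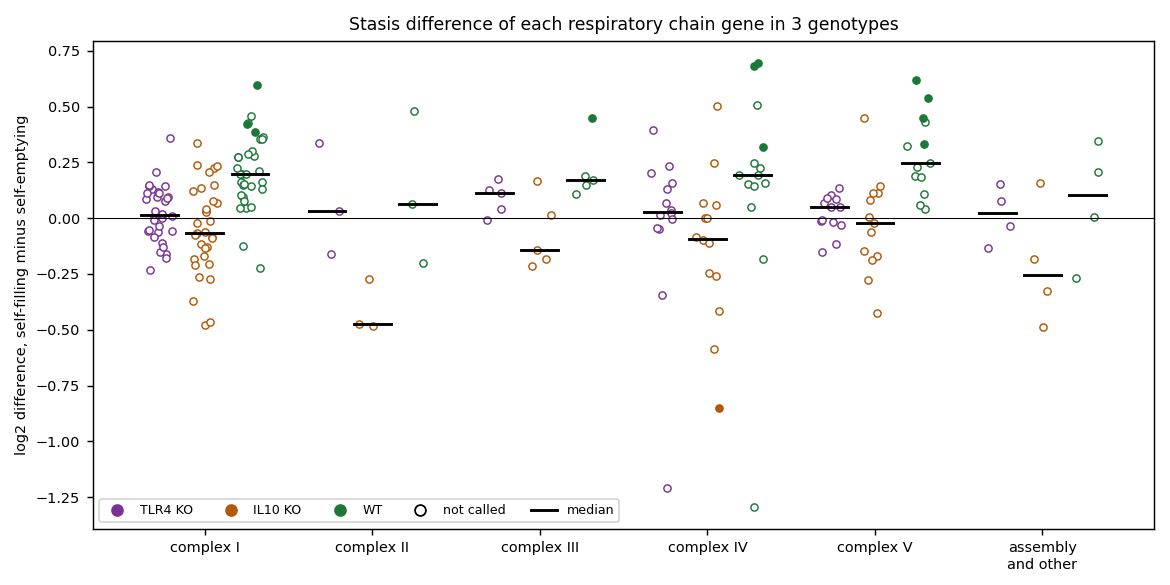
Log2 difference of self-filling minus self-emptying loops (the effect of standing content, or stasis) for the 71 members by complex, in TLR4 KO, IL10 KO and WT mice. Each point is 1 gene, filled points were called, and lines are medians over the genes of a complex. All complex V genes lie above 0 in WT mice, and the called gene in IL10 KO mice is Cox7a2 at -0.85.

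IL10 KO loops were then set against WT loops of the same kind. The WT self-filling arrays used here are the same ones compared with WT sham ileum and WT self-emptying loops above. The relative level of members averaged -0.09 in IL10 KO self-filling loops, -0.09 in WT sham ileum and -0.11 in WT self-emptying loops. It averaged 0.08 in WT self-filling loops. In self-filling loops 0 members were higher and 9 lower in IL10 KO, beside 5.93% and 6.61% of all symbols (12.5% in either direction). The median difference was -0.18 over members and -0.02 over all symbols, and 61 of 71 members were below 0, including all 13 of complex V and all 5 of complex III. Uqcrfs1 of complex III was detected on 1 IL10 KO array and on no WT array here, so its sign rests mostly on values not above background. Every IL10 KO array lay below every WT array for 30 members (15.6% of all symbols) and above for 1 (12.5%). Within the pair of runs that hold both groups, 50 and 59 members were lower. The count was 3 in a fit of these groups alone. It was 4 without IL10 KO self-filling replicate 2 and 5 without IL10 KO self-filling replicate 1 or WT self-filling replicate 1 or 3.

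Cox7a1 had the largest difference of any member here. Its levels were 9.37, 9.78 and 9.58 in IL10 KO self-filling loops, against 11.35, 11.50 and 11.19 in WT self-filling loops. The IL10 KO arrays lay far below the WT arrays, by 1.77 ± 0.17 on the log2 scale (limma adjusted p = 6.59e-07). Cox7a2, its broadly expressed counterpart, had levels of 7.75, 7.49 and 8.15 in IL10 KO self-filling loops, against 8.85, 8.43 and 9.02 in WT self-filling loops. Those groups were apart as well, and the difference was -0.97 ± 0.20 (limma adjusted p = 0.00222). In complex I, Ndufab1, the mitochondrial acyl carrier protein, differed by -0.92 ± 0.21 (limma adjusted p = 0.00547) and Ndufb2 by -0.83 ± 0.17 (limma adjusted p = 0.00265). Atp5e differed by -0.70 ± 0.18 (limma adjusted p = 0.012) and the assembly factor Ndufaf1 by -0.41 ± 0.13 (limma adjusted p = 0.0354).

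In self-emptying loops 0 members were higher and 3 lower in IL10 KO, beside 5.22% and 4.3% of all symbols (9.53% in either direction), and the median was 0.10 over members and 0.02 over all symbols. Ndufb11 and Ndufa6 of complex I differed by -0.61 ± 0.19 (limma adjusted p = 0.0477) and -0.45 ± 0.11 (limma adjusted p = 0.0176). Cox7a1 had levels of 9.90 to 10.43 in IL10 KO self-emptying loops and 10.36 to 10.79 in WT self-emptying loops. The groups overlapped, and the difference was -0.50 ± 0.16 (limma adjusted p = 0.0485). Every IL10 KO array lay above every WT array for 8 members (11.7% of all symbols) and below for 3 (8.79%). The count was 1 without WT self-emptying replicate 1, 2 or 4 or IL10 KO self-emptying replicate 1, 0 with median scaling, and 8 higher and 2 lower with array weights.

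Some genes around the chain were lower in IL10 KO than in WT self-filling loops. Of 15 fatty acid oxidation genes 5 were lower, led by Acads (-1.11 ± 0.15, limma adjusted p = 6.45e-05) and Cpt2 (-0.89 ± 0.21, limma adjusted p = 0.00775). Of 18 citric acid cycle and pyruvate entry genes 3 were lower, with the pyruvate carrier subunit Brp44 at -0.92 ± 0.14 (limma adjusted p = 0.000195). Cycs, cytochrome c, was lower by a log2 difference of -0.66 ± 0.18 (limma adjusted p = 0.0222). Immune markers were higher in the same arrays: 6 of 7 T cell, 6 of 9 macrophage and 2 of 4 neutrophil markers, while 4 of 12 enterocyte markers were lower. The summed neutrophil level was 4170 to 16200 in IL10 KO self-filling loops and 148 to 366 in WT self-filling loops. The summed enterocyte level was 70500 to 78100 in IL10 KO self-filling loops and 86400 to 102000 in WT self-filling loops. Their part in the result was not tested.

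**Figure D4:**
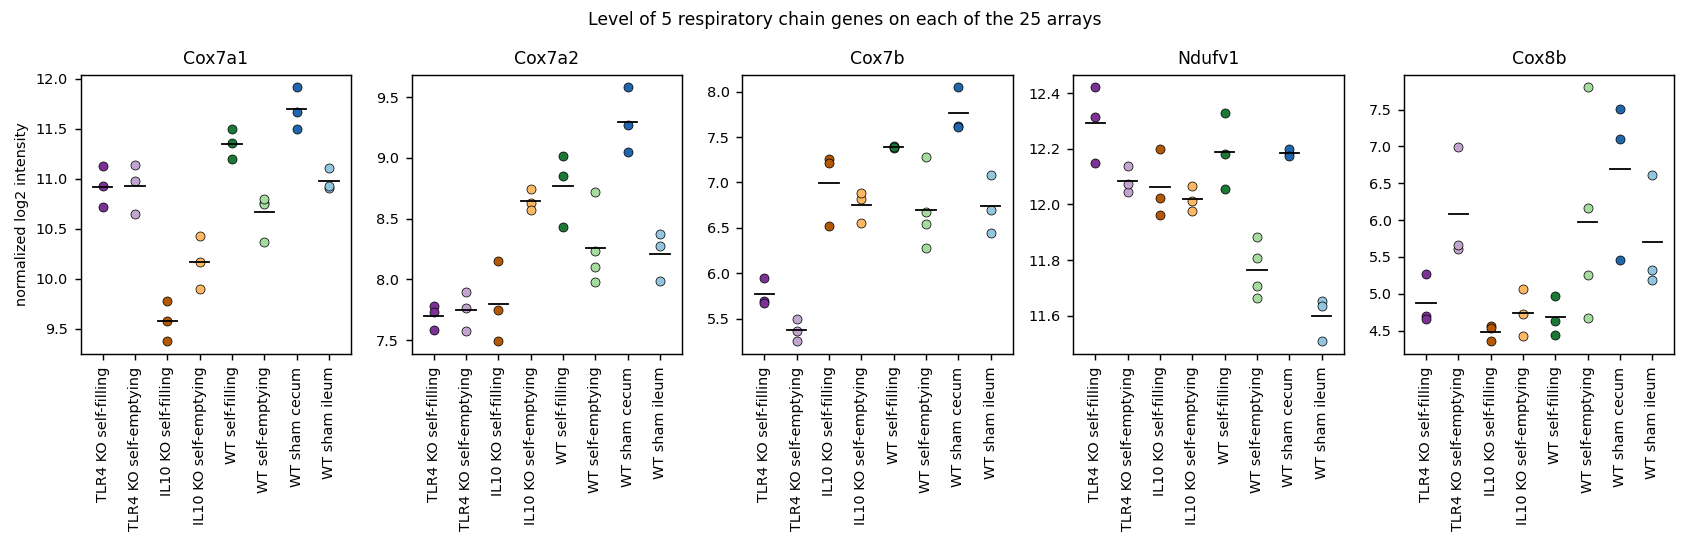
Normalised log2 level of Cox7a1, Cox7a2, Cox7b, Ndufv1 and Cox8b on each of the 25 arrays, by sample group. IL10 KO self-filling arrays are lowest for Cox7a1, at 9.37 to 9.78, and TLR4 KO arrays are lowest for Cox7b.

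TLR4 KO loops were lower than WT loops by more than 1 on the log2 scale in Cox6c, Cox7b, Sdhd, Atp5a1 and Ndufb10. This held in self-filling and self-emptying loops alike. In self-filling loops 1 member was higher and 14 lower in TLR4 KO, beside 4.74% and 6.65% of all symbols (11.4% in either direction), while the median was -0.04 over members and 0.03 over all symbols. In self-emptying loops 1 member was higher and 10 lower, beside 2.08% and 3.57% of all symbols (5.65% in either direction), and the median was 0.11 over members and 0.03 over all symbols. Every TLR4 KO array lay below every WT array for 21 members in self-filling loops (15.1% of all symbols) and 13 in self-emptying loops (9.04%), and above for 7 (16.2%) and 17 (8.79%). In self-emptying loops the calls were 9 higher and 11 lower without background correction, and 0 higher and 5 lower with median scaling. The 2 comparisons use different arrays of the same genotypes, and the array series goes with the genotype in both.

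Cox6c, a complex IV subunit, had levels of 9.98, 9.97 and 9.78 in TLR4 KO self-filling loops, against 11.58, 11.69 and 11.87 in WT self-filling loops, a difference of -1.80 ± 0.13 (limma adjusted p = 3.07e-08). In self-emptying loops its levels were 9.81, 9.89 and 9.43 in TLR4 KO, against 11.53, 11.46, 11.49 and 11.61 in WT, a difference of -1.82 ± 0.12 (limma adjusted p = 7.7e-09). The TLR4 KO arrays also lay below all IL10 KO, cecum and ileum arrays, of which the lowest was at 11.44. Cox7b differed by -1.62 ± 0.22 (limma adjusted p = 0.00013) in self-filling and -1.32 ± 0.21 (limma adjusted p = 0.000545) in self-emptying loops. Sdhd differed by -1.45 ± 0.23 (limma adjusted p = 0.000526) in self-filling and -1.31 ± 0.22 (limma adjusted p = 0.00101) in self-emptying loops. Atp5a1, the alpha subunit of the catalytic head, differed by -1.46 ± 0.18 (limma adjusted p = 5.32e-05) in self-filling and -1.07 ± 0.17 (limma adjusted p = 0.000545) in self-emptying loops.

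In complex I, Ndufb9 and Ndufb2 differed by -1.35 ± 0.20 (limma adjusted p = 0.000268) and -1.27 ± 0.17 (limma adjusted p = 0.00013) in self-filling loops, and Ndufb11 and Ndufb10 by -1.09 ± 0.19 (limma adjusted p = 0.00153) and -1.06 ± 0.19 (limma adjusted p = 0.00193) in self-emptying loops. Each of these genes had a lower TLR4 KO than WT mean in both kinds of loop. In self-filling loops the Ndufb10 mean was 6.99 in TLR4 KO and 8.21 in WT. The members called higher were Cox6b1 in self-filling loops (0.41 ± 0.11, limma adjusted p = 0.0199) and Cox4nb in self-emptying loops (0.60 ± 0.13, limma adjusted p = 0.00827). Outside the members, Usmg5, a small protein associated with ATP synthase, differed by -1.50 ± 0.26 in self-filling loops (limma adjusted p = 0.000904). Of 18 citric acid cycle genes 4 were lower there, led by Dld (-1.23 ± 0.27, limma adjusted p = 0.00671) and Mdh2 (-1.16 ± 0.15, limma adjusted p = 9.6e-05).

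Most genes called lower in TLR4 KO had dimmer probes. With members split at a mean level of 9, a value chosen after the data were seen, 11 of 21 members under 9 and 3 of 50 members at 9 or more were lower in self-filling loops. Among all symbols 6.34% of those under 9 and 7.72% of those at 9 or more were lower. In self-emptying loops 8 of 21 members under 9 and 2 of 50 at 9 or more were lower, beside 3.06% and 5.34% of all symbols. A second probe of the same gene often gave another value. For Ndufs4 the probe used differed by 0.01 in self-filling loops and its other 3 probes by -0.78, -0.65 and -1.26, and for Ndufa5 the probe used differed by 0.13 and the other by -1.48. For Ndufb6 the values were 0.09 and -0.60. Among called genes, the second Cox6b1 probe differed by 0.014 in self-filling loops, against 0.41 for the one used. In self-emptying loops the second Cox4nb probe, about as bright, differed by -0.20, against 0.60, and both calls were lost with the median of detected probes. The second Ndufb11 probe, detected on 17 arrays, differed by -0.076 in self-emptying loops, against -1.09 for the one used, and by -0.17, against -0.61, for IL10 KO minus WT. Of smooth muscle markers 5 of 11 were higher in TLR4 KO self-filling loops, at a summed level of 39500 to 52800 in TLR4 KO and 12200 to 32800 in WT, and 4 of 12 enterocyte markers were lower. Their part in the result was not tested.

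**Figure D5:**
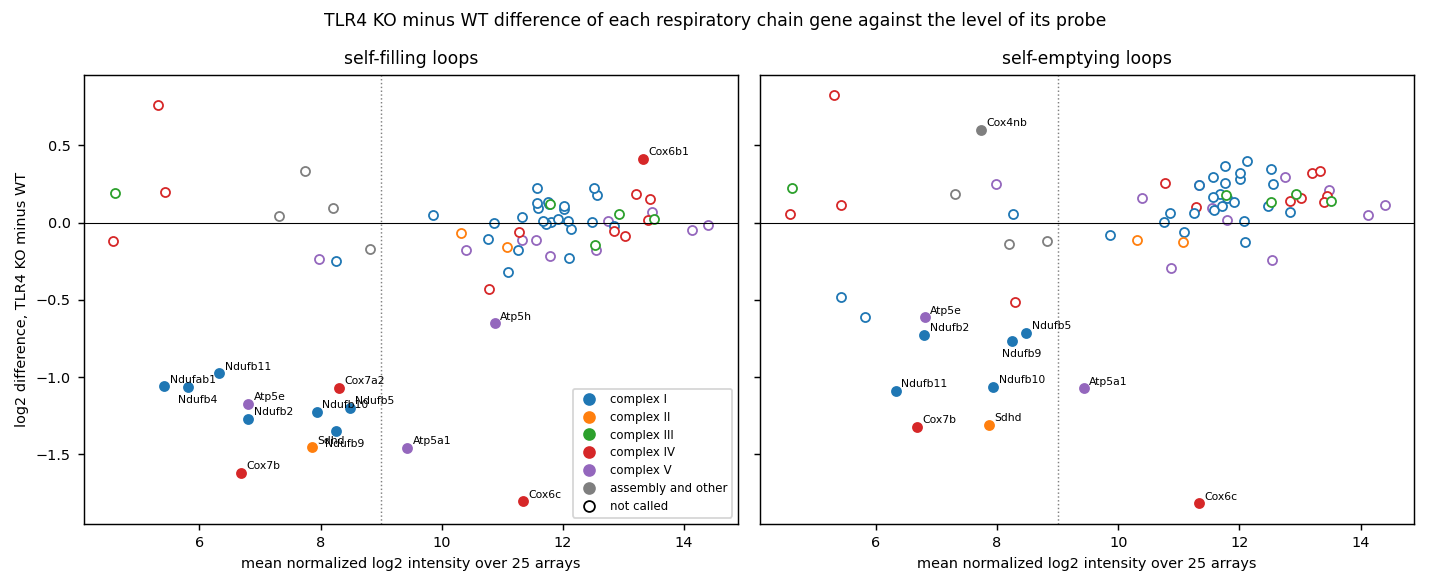
Log2 difference of TLR4 KO minus WT loops against the mean normalised log2 level over 25 arrays, for the 71 members, with self-filling loops on the left and self-emptying loops on the right. Each point is 1 gene, filled points were called, and the dotted line marks a level of 9. Of the 14 members called lower in self-filling loops, 11 lie under 9.

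Cox8b, the form of subunit 8 known from brown fat and muscle, was the member with the widest spread. Its levels were 4.44 to 4.97 in WT self-filling loops, against 4.67 to 7.80 in WT self-emptying loops and 5.19 to 6.61 in WT sham ileum. The WT self-filling arrays overlapped with the self-emptying arrays and lay below the sham ileum arrays. The highest group mean was 6.69, in WT sham cecum. Means were 6.09 in TLR4 KO self-emptying and 4.88 in TLR4 KO self-filling loops. They were 4.74 in IL10 KO self-emptying and 4.48 in IL10 KO self-filling loops. Cox8b was detected on 1 of 3 WT self-filling arrays, 3 of 4 WT self-emptying arrays and 3 of 3 WT sham ileum arrays, so differences against WT self-filling loops rest mostly on values not above background. It was called in none of the comparisons, the smallest limma adjusted p being 0.0735, for self-filling minus self-emptying loops averaged over genotypes. Adipocyte markers varied over the same groups, with a summed level of 404 to 511 in WT self-filling loops, against 699 to 15400 in WT self-emptying loops and 2030 to 12800 in WT sham ileum. The summed level was 236 to 12300 in WT sham cecum. In TLR4 KO it was 2860 to 15000 in self-emptying and 616 to 1350 in self-filling loops. In IL10 KO it was 453 to 3740 in self-emptying and 421 to 1420 in self-filling loops. The part of adipocytes in the spread of Cox8b was not tested.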

How the data were processed

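RNA of 25 samples in 8 groups was measured on Illumina bead arrays with 25697 probes. The authors deposited a table of non-normalized probe intensities with a detection p-value for each probe and array. They also deposited a table of log2 values, and limma is named in the submitters' processing notes, without a version. The intensities were background-corrected from the detection p-values, quantile-normalised and put on the log2 scale with limma 3.58.1 in R 4.3.3 (neqc, offset 16). One probe was kept per symbol, the one with the highest mean signal among those with a detection p-value under 0.05 on at least 3 arrays, which left 11369 symbols. A linear model with the 8 groups as its terms used all 25 arrays (lmFit, contrasts.fit and eBayes, 17 residual degrees of freedom), and p-values were adjusted over all symbols by Benjamini-Hochberg, with calls at 0.05. Precision is limited by the 3 or 4 arrays per group. The members, gene lists and tests were chosen with earlier results of these data known. Genes named for each comparison are, in each complex, up to 2 called members with the largest difference in each direction. Muscle and testis forms of subunits and their broad counterparts were also named. Most of these were given for cecum minus ileum, and they were not given for every comparison. The alternatives were cyclic loess and median scaling, no background correction, the deposited log2 values, other detection filters, the median of several probes, array weights, array runs or replicate numbers as a block, a signal ratio as covariate, only the groups compared, and leaving out each array. In simulated data limma's calls were checked for recovery of known differences. Current gene names came from RefSeq.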

Additional observations from a re-analysis of the deposited data

Results flagged for a closer look

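In 3 members the effect of standing content differed between IL10 KO and WT mice by the interaction test of limma. The difference of self-filling minus self-emptying loops in IL10 KO mice, minus that in WT mice, was -1.36 for Cox7a2 (adjusted p = 0.013), -1.27 for Cox7a1 (adjusted p = 0.00877) and -0.96 for Atp5e (adjusted p = 0.0378). The difference was negative in IL10 KO and positive in WT mice for each. Within a genotype it was called in IL10 KO alone for Cox7a2, and in WT alone for Cox7a1 and Atp5e. Atp5e lost its call in 10 of 13 omissions of an array and Cox7a2 in 1, that of WT self-filling replicate 3.

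In the WT self-emptying group, which is the only one with 4 arrays and so the only one examined this way, 1 array lay far from the other 3 for 10 of the 71 members. Chance alone gives such a gap in about 1 in 20 groups. Replicate 2 was the distant array for 5 of the 10. It was low for Ndufb8 (12.231, others 12.3502 to 12.3712), Ndufa9 (11.6845, others 11.8633 to 11.8783), Ndufs3 (10.6928, others 11.002 to 11.0474) and Cox7a1 (10.3624, others 10.7421 to 10.7929). It was high for Ndufb10 (8.27946, others 7.79769 to 7.84102). Replicate 3 was low for Atp5a1 (9.23089, others 9.59472 to 9.62893) and Atp5s (7.07891, others 7.37905 to 7.43329) and high for Cox4nb (7.55704, others 7.48948 to 7.49812). Replicate 1 was low for Atp5j (12.3145, others 12.536 to 12.5673) and replicate 4 for Cox7a2l (11.1658, others 11.361 to 11.3711). What sets these arrays apart was not tested.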

How the results depend on the processing

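Below, counts are members called in either direction and medians are over the 71 members. With median scaling, 23 members were called for WT self-filling loops minus sham ileum (median 0.46), 51 for WT self-filling minus self-emptying loops (0.59), 0 for the same loops in IL10 KO (0.048), 16 for the mean of 3 genotypes (0.24, with Sdhb reversed at 0.018) and 15 for cecum minus ileum (0.36). It gave 0 for IL10 KO minus WT self-emptying loops (median 0.14), 5 for TLR4 KO minus WT self-emptying loops (0.074) and 5 for the IL10 KO interaction (-0.52). Other medians with this scaling were -0.088 for WT self-emptying loops minus sham ileum, 0.11 for TLR4 KO self-filling minus self-emptying loops, -0.36 for IL10 KO and -0.35 for TLR4 KO minus WT self-filling loops, and -0.46 for the TLR4 KO interaction. It also moved the median of all symbols, by 0.16 for WT self-filling loops minus sham ileum, 0.21 for WT self-filling minus self-emptying loops, -0.13 and -0.11 for IL10 KO and TLR4 KO minus WT self-filling loops, and -0.18 for both interactions. Members minus all symbols then stood at 0.30, 0.38, -0.23, -0.24, and -0.34 and -0.27. Cyclic loess gave medians of 0.057 for WT self-filling loops minus sham ileum, 0.14 for WT self-filling minus self-emptying loops, 0.64 for cecum minus ileum, -0.12 for IL10 KO minus WT self-filling loops, 0.068 for TLR4 KO minus WT self-emptying loops and -0.20 for the IL10 KO interaction. Calls among all symbols, higher and lower, were 487 and 922 with median scaling and 841 and 638 with cyclic loess for IL10 KO minus WT self-filling loops, and 296 and 850 with median scaling for the TLR4 KO ones. They were 135 and 79 with median scaling for IL10 KO self-filling minus self-emptying loops, 1288 and 388 for the mean of 3 genotypes, and 196 and 134 with cyclic loess or 77 and 157 with median scaling for the IL10 KO interaction.

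For IL10 KO self-filling minus self-emptying loops, 3 members were called without background correction or with array runs as a block, 2 with no detection filter, with detection p under 0.01 or with the median of detected probes, and 0 in a fit of the groups compared alone. For IL10 KO minus WT self-emptying loops, 6 were called without background correction, 1 with no detection filter, 10 with array weights (median 0.14) and 0 in a fit of the groups alone. For TLR4 KO minus WT self-emptying loops, 20 were called without background correction and 7 in a fit of the groups alone. The median for TLR4 KO minus WT self-filling loops was -0.10 with the median of detected probes. For the IL10 KO interaction, 7 were called without background correction, 5 with no detection filter or with the signal ratio as a covariate, 11 with array weights and 1 in a fit of the groups alone. For WT self-filling loops minus sham ileum, 20 were called with array weights and 7 with the signal ratio. For WT self-filling minus self-emptying loops, 4 were called in a fit of the groups alone, 5 with runs as a block, 2 with the signal ratio and 0 without both WT self-emptying arrays of codes 9 to 16, an alternative chosen after seeing the data. For the mean of 3 genotypes, 3 were called in a fit of these groups alone and 2 with the signal ratio, and for IL10 KO minus WT self-filling loops 3 in a fit of the groups alone. The causes were not tested.

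Leaving out 1 array at a time gave 4 to 9 members called for WT self-filling loops minus sham ileum, 1 to 10 for WT self-filling minus self-emptying loops (median 0.17 to 0.22), 0 to 3 for the same loops in IL10 KO and 2 to 6 for the mean of 3 genotypes. It gave 4 to 10 for IL10 KO minus WT self-filling loops, 1 to 3 for IL10 KO minus WT self-emptying loops (median 0.0702 to 0.136) and 1 to 6 for the IL10 KO interaction. The median for TLR4 KO minus WT self-emptying loops ran from 0.084 to 0.149. Of the genes named as called, those that kept their call under every omission were 16 of 17 in the cecum (8 under every other setting), 8 of 9 for TLR4 KO minus WT self-filling loops (8) and 7 of 8 for TLR4 KO minus WT self-emptying loops (5). They were 4 of 6 for IL10 KO minus WT self-filling loops (3), 2 of 9 for WT self-filling loops minus sham ileum (4), 1 of 7 for WT self-filling minus self-emptying loops (0), 2 of 5 for the mean of 3 genotypes (1), 1 of 3 for the IL10 KO interaction (1), 0 of 3 for IL10 KO minus WT self-emptying loops (0) and 0 of 1 for IL10 KO self-filling minus self-emptying loops (0).

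Correlations of the deviations of same-numbered samples from their group means ran from -0.418 to 0.394. With 3 or 4 arrays per group, these values cannot settle whether same-numbered samples are paired. With the replicate block, 1 member was called for IL10 KO minus WT self-emptying loops, and the other counts stayed within 1.5 times those reported. Array runs as a block could not be fitted for TLR4 KO minus WT, where series and genotype coincide, and Uqcrfs1 had no value with detection p under 0.01.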
